A study of Mus musculus with 6 samples.

Results

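The genes described here belong to the interferon and nucleic acid sensing system, the set of sensors, signalling proteins and induced antiviral effectors with which a cell can answer foreign RNA or DNA. They were read in cultured mouse neural precursors that had been transfected with synthetic oligonucleotides. Members were the gene probes whose single symbol in the platform annotation was one of 39 named genes. The rule itself uses no measured value, although the genes were named with earlier results of these data known. Of these, 37 genes were measured by 40 of the 34967 gene probes, with a pair of probes each for Ifnar1, Oas3 and Eif2ak2. Ifit3 was left out because its only probe also carries the symbol Ifit3b, and Ifi44 had no probe with its symbol.

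The 6 arrays come from neurosphere cultures, which are floating aggregates of dividing neural precursors, grown from dorsal telencephalon of embryonic day 12.5 C57BL/6 mice. For 3 arrays the transfected reagent was a 2'-O-methyl antisense oligonucleotide directed at the microRNA miR-335. For the other 3 it was a nonsense 2'-O-methyl oligonucleotide, which the labels name after EGFP. All cultures received bFGF, EGF and LIF, and LIF itself signals through the JAK kinases and STAT factors. The labels give the transfection duration as 24 for all 6 arrays, without a unit. Both groups were transfected, and no untransfected or mock-treated culture was analysed here. The arrays therefore give the status of each gene in cells that received an oligonucleotide and the difference between both oligonucleotides, not the effect of transfection itself. Replicates are described as independent, but not whether separate litters, cultures or transfections are meant, so the p-values cover only the variation among these samples, which may be technical. In RNA from a whole culture, fewer cells of a type and less RNA per cell cannot be told apart.

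In mammalian cells, double-stranded RNA in the cytoplasm is bound by the helicases RIG-I (Ddx58) and MDA5 (Ifih1), which signal through Mavs, while nucleic acids in endosomes are bound by Toll-like receptors. Both routes activate interferon regulatory factors and type I interferon genes. Secreted interferon binds the receptor made of Ifnar1 and Ifnar2 and activates a complex that holds Stat2 and Irf9, binds the interferon stimulated response element and switches on effectors such as the Ifit, Oas and Mx genes, Isg15 and Rsad2. Many of these effectors are nearly silent in resting cells, which makes them a common readout of whether cells have responded to foreign nucleic acid.

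The microRNA addressed by the antisense reagent is shown first, since pairing to it is what the 2 oligonucleotides are meant to differ in. The labels do not give the letters of either oligonucleotide or say which mature form was addressed. RefSeq (GRCm38.p6) lists both mature forms on the plus strand, at chr6:30741314-30741336 and chr6:30741354-30741375, and capitals mark the seed, bases 2 to 8.
mmu-miR-335-5p: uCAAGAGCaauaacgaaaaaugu
mmu-miR-335-3p: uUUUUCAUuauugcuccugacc

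Promoter sequence was not used to choose the members. The choice did include effectors described above as switched on through the response element. A high share of matches therefore came with that choice and is no separate result about this element. Its core was searched as GAAA, any 2 bases and GAAA, or on the other strand TTTC, any 2 bases and TTTC, in promoter windows of 250 bases before to 50 bases after the gene start from RefSeq (GRCm38.p6). Windows were found for 33 of the 39 named genes, and 13 of the 33 (39.4%) held a match, against 1079 of all 27025 genes with a window (3.99%). Counted by window, 13 of 41 member windows (31.7%) and 1131 of all 32851 windows (3.44%) held one. Matches were as frequent among measured members above background on every array of at least 1 group (8 of 21 genes) as among the other measured members (4 of 10). A match is a run of letters and not a bound site, and overlapping matches were counted separately. The windows of 4 members are shown with the matches in capitals: Isg15 and Ifit1, an effector above background on all arrays and one on none, and the sensors Ifih1 and Ddx58.
Isg15, chr4:156200769-156201068, minus strand: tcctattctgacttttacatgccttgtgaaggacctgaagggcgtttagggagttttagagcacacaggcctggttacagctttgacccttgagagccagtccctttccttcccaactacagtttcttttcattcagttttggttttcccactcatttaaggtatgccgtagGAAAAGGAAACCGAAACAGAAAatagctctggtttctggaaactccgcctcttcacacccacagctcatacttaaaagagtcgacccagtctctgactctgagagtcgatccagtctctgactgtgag
Ifit1, chr19:34640639-34640938, plus strand: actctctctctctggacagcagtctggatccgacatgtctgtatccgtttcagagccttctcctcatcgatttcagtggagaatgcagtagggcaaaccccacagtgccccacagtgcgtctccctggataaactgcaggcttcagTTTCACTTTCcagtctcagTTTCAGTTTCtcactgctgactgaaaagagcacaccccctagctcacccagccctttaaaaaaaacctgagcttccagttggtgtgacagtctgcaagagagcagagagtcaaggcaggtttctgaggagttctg
Ifih1, chr2:62646206-62646505, minus strand: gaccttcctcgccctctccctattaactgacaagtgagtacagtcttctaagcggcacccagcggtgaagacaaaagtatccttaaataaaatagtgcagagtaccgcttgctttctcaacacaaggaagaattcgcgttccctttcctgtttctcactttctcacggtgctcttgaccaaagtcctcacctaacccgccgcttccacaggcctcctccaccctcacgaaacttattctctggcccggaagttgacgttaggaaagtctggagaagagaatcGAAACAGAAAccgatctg
Ddx58, chr4:40239776-40240075, minus strand: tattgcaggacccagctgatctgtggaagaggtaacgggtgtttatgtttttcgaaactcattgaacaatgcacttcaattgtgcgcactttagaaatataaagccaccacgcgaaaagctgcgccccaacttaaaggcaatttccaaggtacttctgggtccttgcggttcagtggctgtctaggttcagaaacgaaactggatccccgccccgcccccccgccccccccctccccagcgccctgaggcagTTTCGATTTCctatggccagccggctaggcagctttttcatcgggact
The Isg15 window held 3 overlapping matches, starting between positions -78 and -66 relative to the gene start, and the Ifit1 window held 2, starting at -104 and -85. The single matches of Ifih1 and Ddx58 lay after the start.

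The first question was which of these genes the neurospheres expressed at all. Components of the detection and signalling route were mostly above background, while all probes that were above background on no array belonged to induced effectors and chemokines, one of them a second probe of a gene whose first probe was above it on all 6. An intensity of 1 is the median of its array. The background limit was set on each array from the negative control spots at 0.692, 0.563 and 0.492 on anti-miR-335 replicates 1 to 3, against 0.656, 0.630 and 0.645 on the control replicates. Over the whole list 21 of 40 probes (52.5%) exceeded the limit on all 6 arrays, against 51.0% of all gene probes, 12 exceeded it on some arrays and 7 (17.5%) on none, against 26.2% of all gene probes. Among sensors, adaptors, receptors and transcription factors 11 of 15 probes were above background on all 6 arrays and 0 on none. Among effectors, chemokines and antigen presentation genes 10 of 25 (40%) were above it on all 6 arrays and 7 (28%) on none, the second share near that of all gene probes.

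By array, 24, 26 and 29 of the 40 member probes were above background on anti-miR-335 replicates 1, 2 and 3, against 26, 27 and 25 on the control replicates. The highest count fell on the array with the lowest limit, where 67.3% of all gene probes were also above background, against 59.9% to 63.1% on the other 5 arrays. The members' share above background was 60% to 72.5% over the 6 arrays.

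**Figure D1:**
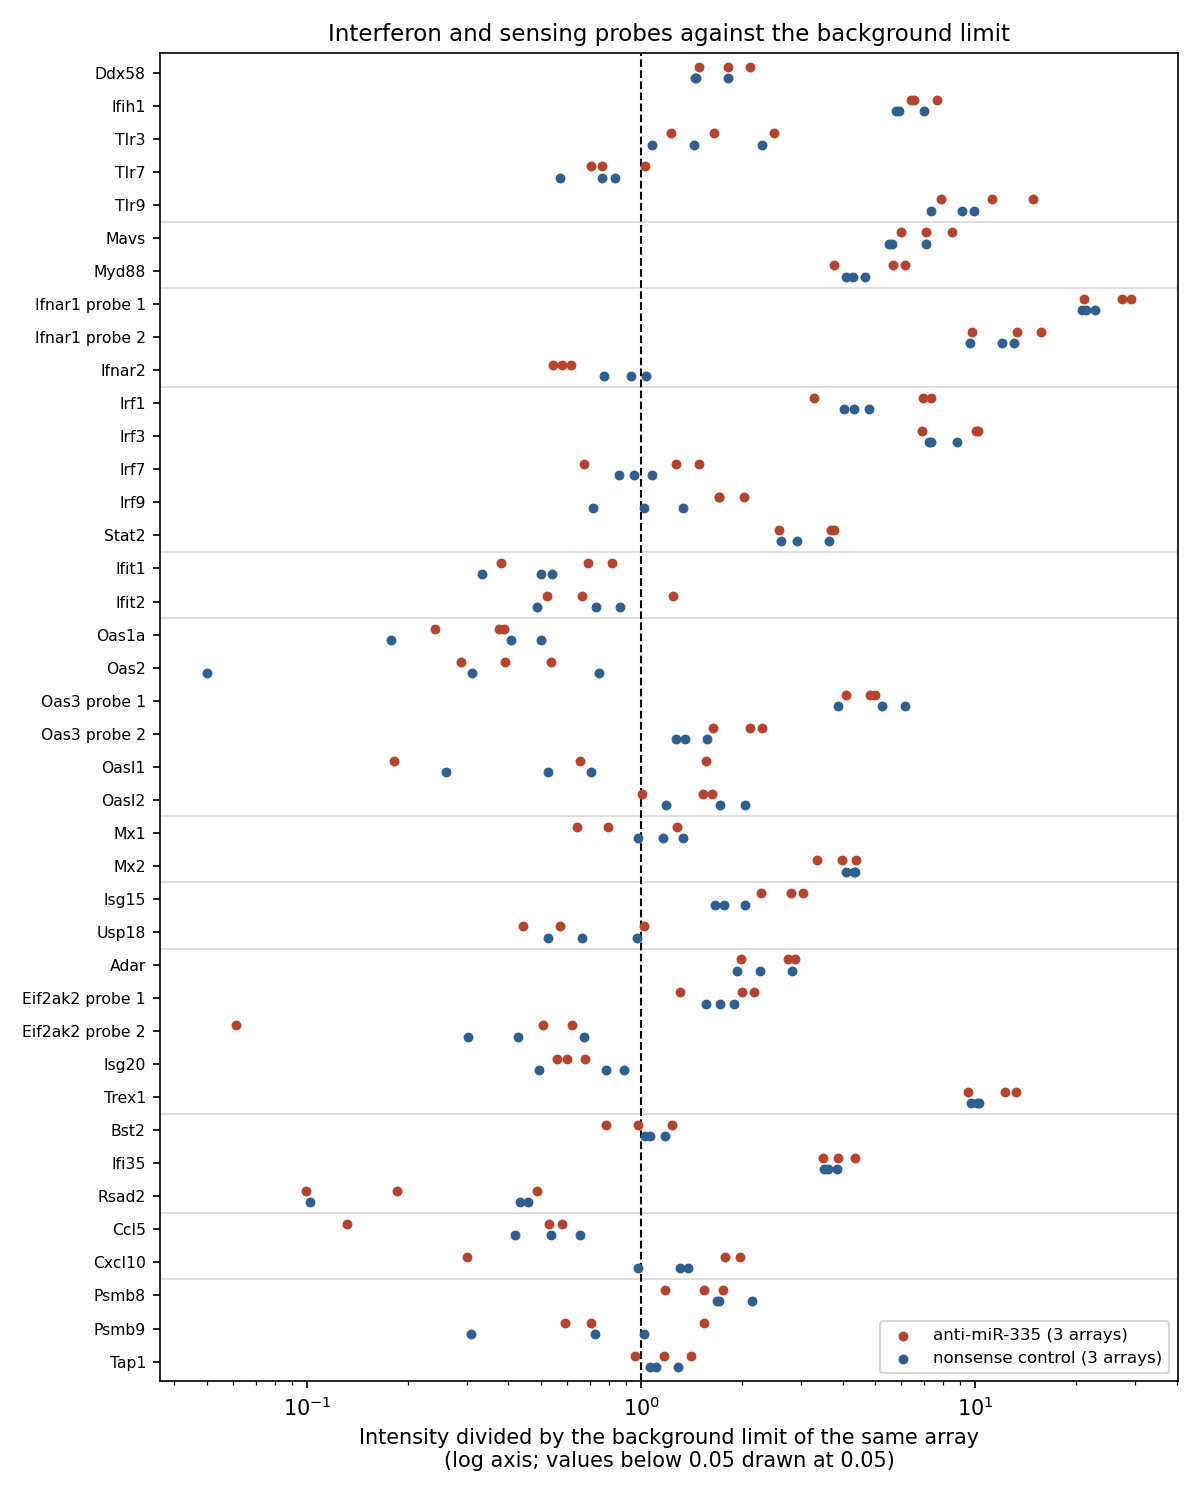
Intensity of each of the 40 member probes divided by the background limit of the same array (log axis), with 3 anti-miR-335 arrays in red above 3 control arrays in blue and genes ordered by role; the dashed line is the limit. The 21 probes right of the line on all 6 arrays include most sensors, adaptors and transcription factors, and the 7 left of it on all 6 are Ifit1, Oas1a, Oas2, a second Eif2ak2 probe, Isg20, Rsad2 and Ccl5.

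The second question was whether the members differed between the antisense and the nonsense oligonucleotide. They did not pass the test: by limma, 0 of 40 member probes had an adjusted p under 0.05, against 0.0% of the 34847 gene probes tested. At an unadjusted p under 0.05 there were 3 of 40 (Irf9 and Isg15 higher and Ifnar2 lower with anti-miR-335), against 9.07% of all probes tested, 4.91% higher and 4.17% lower. Group values did not overlap for 6 of 40, 3 higher and 3 lower, against 14.7% of the 34204 gene probes with values on all arrays, 7.46% higher and 7.25% lower. The median log2 difference was -0.03 over the 40 probes and 0.01 over all gene probes tested, with 18 members above 0 and 22 below. For probes above background on every array of at least 1 group, the median size of the log2 difference regardless of sign was 0.10 over 24 member probes and 0.15 over all gene probes meeting the same condition.

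How much of a difference these data could hold is given by 95% intervals only for the 24 probes above background on every array of a group. For 22 of them the interval of the fold lay within 2-fold in both directions. Over all 24 the adjusted p by limma ran from 0.498 to 0.994. The exceptions to the 2-fold bounds were Irf9, whose upper bound was 2.47-fold, and Psmb8, whose lower bound was 0.470-fold. The 2 intervals that left out a difference of 0, those of Irf9 and Isg15, are not adjusted for the number of probes. These bounds do not cover the other member probes, among them Ifit1, Ifit2, Oas1a, Oas2 and Rsad2.

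**Figure D2:**
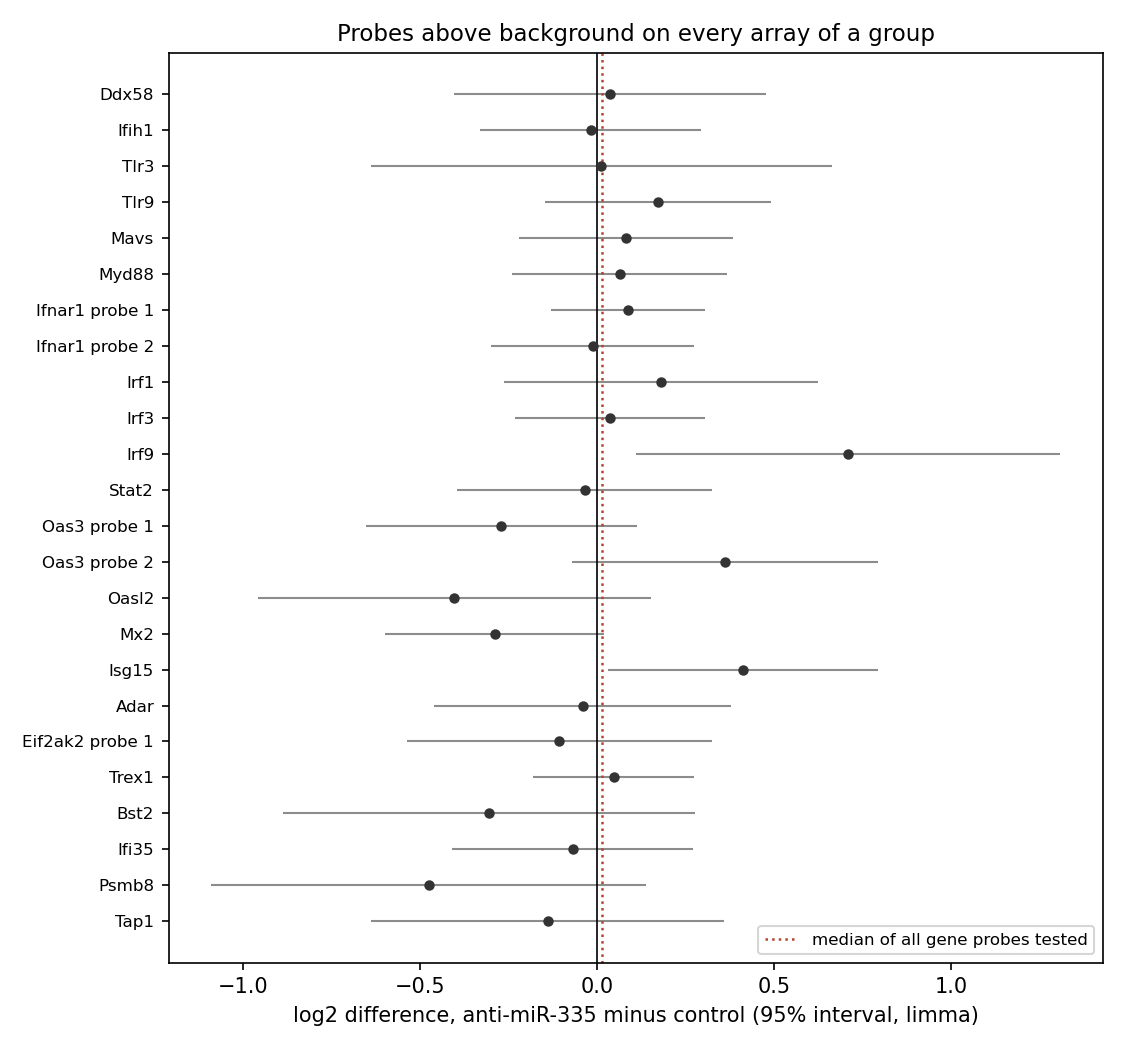
Log2 difference (anti-miR-335 minus control) with its 95% interval by limma for the 24 member probes above background on every array of at least 1 group, ordered by role; the dotted line is the median of all gene probes tested, 0.01. Of these, 12 lie above 0 and 12 below, and 22 intervals include 0.

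Of the sensors, 4 of 5 were above background on all 6 arrays. Ifih1, the MDA5 helicase that binds long double-stranded RNA, lay at 4.53, 3.61 and 3.76 in anti-miR-335 replicates 1, 2 and 3, against 4.61, 3.64 and 3.81 in the control replicates. The groups overlapped almost completely, with a log2 difference of -0.02 ± 0.14 (SE, adjusted p = 0.981 by limma). Ddx58, the RIG-I helicase, lay at 1.03, 1.02 and 1.04 against 1.19, 0.916 and 0.933 with control oligonucleotide, a log2 difference of 0.04 ± 0.20 (adjusted p = 0.973).

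Tlr3, the endosomal receptor for double-stranded RNA, lay at 0.850, 0.929 and 1.22 with anti-miR-335 and at 1.51, 0.904 and 0.694 with control oligonucleotide. Its control values spanned those of the other group, the log2 difference was 0.01 ± 0.29 (SE), and the interval of the fold ran from 0.642 to 1.58. Tlr9, the endosomal receptor for unmethylated CpG DNA, lay at 5.46, 6.31 and 7.29 against 4.81, 5.74 and 6.37 with control oligonucleotide. The groups overlapped (log2 difference 0.17 ± 0.14, adjusted p = 0.756 by limma). Tlr7, the endosomal receptor for single-stranded RNA, was above background on 1 of 3 anti-miR-335 arrays and on 0 of 3 controls, with 0.374 to 0.576 against 0.369 to 0.526. These Toll-like receptors are best known from immune cells, and microglia are the immune cells of the brain. Of 10 measured microglia and macrophage markers 6 were above background on no array, against 26.2% of all gene probes. Among these 6 were Ptprc, Itgam, C1qa and Tyrobp, while Cd14 was above background on all 6 arrays. Cx3cr1 was above it on 5 arrays, and Aif1 and Lyz2 were above it on 1 array each. Cx3cr1 lay at 0.897, 0.978 and 1.40 with anti-miR-335 against 0.584, 0.806 and 0.783 with control oligonucleotide, without overlap (adjusted p = 0.535 by limma). Ptprc was lower without overlap, at 0.195, 0.267 and 0.190 against 0.4325, 0.338 and 0.378, all at background (adjusted p = 0.529 by limma). At an unadjusted p under 0.05 by limma, 1 marker was higher and 2 lower, against 4.91% and 4.17% of all gene probes. Groups did not overlap for 1 marker that was higher and 1 that was lower, against 7.46% and 7.25%. The part of microglia and macrophages in the Toll-like receptor values was not tested. The marker list summed to 5.22 to 6.01 with anti-miR-335 and 5.48 to 6.28 with control oligonucleotide. Cd14 was the largest part of these sums, at 1.72 to 2.44 and 1.91 to 3.32.

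The adaptors were above background throughout. Mavs, the mitochondrial partner of both helicases, lay at 4.11 ± 0.0916 with anti-miR-335 and 3.92 ± 0.650 with control oligonucleotide (SD, n = 3 each). Myd88, the adaptor of Tlr7 and Tlr9, lay at 2.94 ± 0.304 against 2.81 ± 0.227 with control oligonucleotide. Both log2 differences, 0.08 ± 0.14 and 0.06 ± 0.14 (SE), were smaller than their errors.

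The interferon receptor was read on 3 probes. The probes of Ifnar1, the chain that binds Tyk2, lay at 14.6, 15.5 and 14.4 with anti-miR-335 against 15.0, 13.5 and 13.5 with control oligonucleotide, and at 6.73, 7.52 and 7.72 against 7.87, 8.21 and 6.21. The groups overlapped on both probes, with log2 differences of 0.09 ± 0.10 and -0.01 ± 0.13 (SE). Ifnar2, the chain that binds Jak1 and Stat2, had the smallest unadjusted p of all member probes. It lay at 0.377, 0.327 and 0.303 with anti-miR-335, against 0.507, 0.587 and 0.666 with control oligonucleotide. The groups did not overlap, but only 1 of the 6 values, that of control replicate 3, was above background. The log2 difference of -0.80 ± 0.29 (SE, adjusted p = 0.490 by limma) is therefore one between values of which 5 are at background, and no fold is given.

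Among transcription factors, Irf3, the factor first activated by Mavs signalling, lay at 4.77, 5.67 and 5.02 with anti-miR-335 against 4.77, 5.56 and 4.74 with control oligonucleotide. Its groups overlapped, with a log2 difference of 0.04 ± 0.12 (SE). Irf1, which is itself induced by interferon, lay at 3.28 ± 0.879 against 2.83 ± 0.302 (SD, n = 3 each), and Stat2 at 1.91 ± 0.152 against 1.96 ± 0.299. Their log2 differences were 0.18 ± 0.20 for Irf1 and -0.04 ± 0.16 for Stat2 (SE). Irf7, which amplifies the response once interferon has been made, was above background on 2 of 3 anti-miR-335 arrays and on 1 of 3 controls, at 0.662 ± 0.256 against 0.619 ± 0.0821.

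Irf9, the DNA-binding partner of Stat2, had values of 1.19, 0.959 and 0.995 with anti-miR-335 and 0.876, 0.642 and 0.461 with control oligonucleotide. All 3 anti-miR-335 values exceeded all 3 control values, and control replicate 3 was below background. The log2 difference was 0.71 ± 0.27 (SE, adjusted p = 0.498 by limma), or 1.63-fold. Without control replicate 1 it was 0.94 (adjusted p = 0.0805), the smallest adjusted p among the 24 member probes above background on every array of a group in that fit, in which 3.17% of all gene probes passed. Without control replicate 3, the one below background, it was 0.47 (adjusted p = 0.775 by limma).

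Effectors, chemokines and antigen presentation genes had 28% of their probes above background on no array, near the 26.2% of all gene probes. Ifit1, a protein that binds viral RNA lacking the host's cap methylation, was above background on no array, at 0.374 ± 0.177 with anti-miR-335 and 0.294 ± 0.0680 with control oligonucleotide. Its relative Ifit2 exceeded the limit on 1 anti-miR-335 array, with 0.362 to 0.610 against 0.315 to 0.566 with control oligonucleotide. Rsad2, the antiviral enzyme viperin, and Isg20, an exonuclease, were above background on no array, at 0.138 ± 0.0899 and 0.354 ± 0.0522 with anti-miR-335 against 0.213 ± 0.127 and 0.464 ± 0.128 with control oligonucleotide. Usp18, the protease that removes Isg15 from proteins and dampens receptor signalling, was above background on 1 anti-miR-335 array, where it lay at 0.706, and on 0 control arrays. Values at background bound what was detectable here and do not show that a transcript was absent.

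Isg15, a ubiquitin-like modifier and one of the most strongly inducible genes of the system, was above background on all arrays. It lay at 1.58, 1.58 and 1.495 in anti-miR-335 replicates 1, 2 and 3, against 1.16, 1.04 and 1.31 in the control replicates. All 3 anti-miR-335 values exceeded all 3 control values, and the log2 difference was 0.41 ± 0.17 (SE), a fold of 1.33 with a 95% interval of 1.02 to 1.73. It did not pass over all probes (adjusted p = 0.527 by limma). Over all alternatives to the fit its log2 difference lay between 0.33 and 0.50 and its adjusted p by limma was never under 0.129. On the replicate 1 pair alone it was 0.45, and 0.31 after normexp background correction and quantile normalization.

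The oligoadenylate synthetases bind double-stranded RNA and make the messenger that activates RNase L. Oas1a and Oas2 were above background on no array, at 0.136 to 0.269 and 0.162 to 0.271 with anti-miR-335 against 0.117 to 0.323 and -0.0215 to 0.472 with control oligonucleotide. Oas3 had a pair of probes that pointed in opposite directions. The first lay at 2.84, 2.82 and 2.38 with anti-miR-335 against 2.55, 3.31 and 3.97 with control oligonucleotide, with overlapping groups and a log2 difference of -0.27 ± 0.17 (SE). The second lay at 1.13, 1.19 and 1.13 against 0.883, 0.800 and 1.01, with every anti-miR-335 value above every control value and a log2 difference of 0.36 ± 0.19. Neither passed (adjusted p = 0.675 and 0.619 by limma), so no direction is given for Oas3.

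Of the related synthetase-like genes, Oasl2 lay at 0.693, 0.918 and 0.754 with anti-miR-335 against 0.779, 1.08 and 1.32 with control oligonucleotide. The groups overlapped (log2 difference -0.40 ± 0.25 SE, adjusted p = 0.669 by limma). Oasl1 was above background on anti-miR-335 replicate 2 alone, where it lay at 0.879, against 0.125 to 0.457 on the other 5 arrays.

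The Mx genes encode dynamin-like GTPases that block viruses, and C57BL/6 mice carry a defective Mx1. Mx2 lay at 2.32, 2.48 and 1.96 with anti-miR-335, against 2.68, 2.73 and 2.82 with control oligonucleotide. Every anti-miR-335 value was below every control value, with a log2 difference of -0.29 ± 0.14 (SE, adjusted p = 0.577 by limma), or 0.818-fold. Mx1 lay at 0.443, 0.447 and 0.627 against 0.640, 0.729 and 0.859, again without overlap, but was above background on only 1 anti-miR-335 and 2 control arrays. Isg15 and Mx2, both above background on all 6 arrays, thus had differences of opposite sign, neither of which passed.

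**Figure D3:**
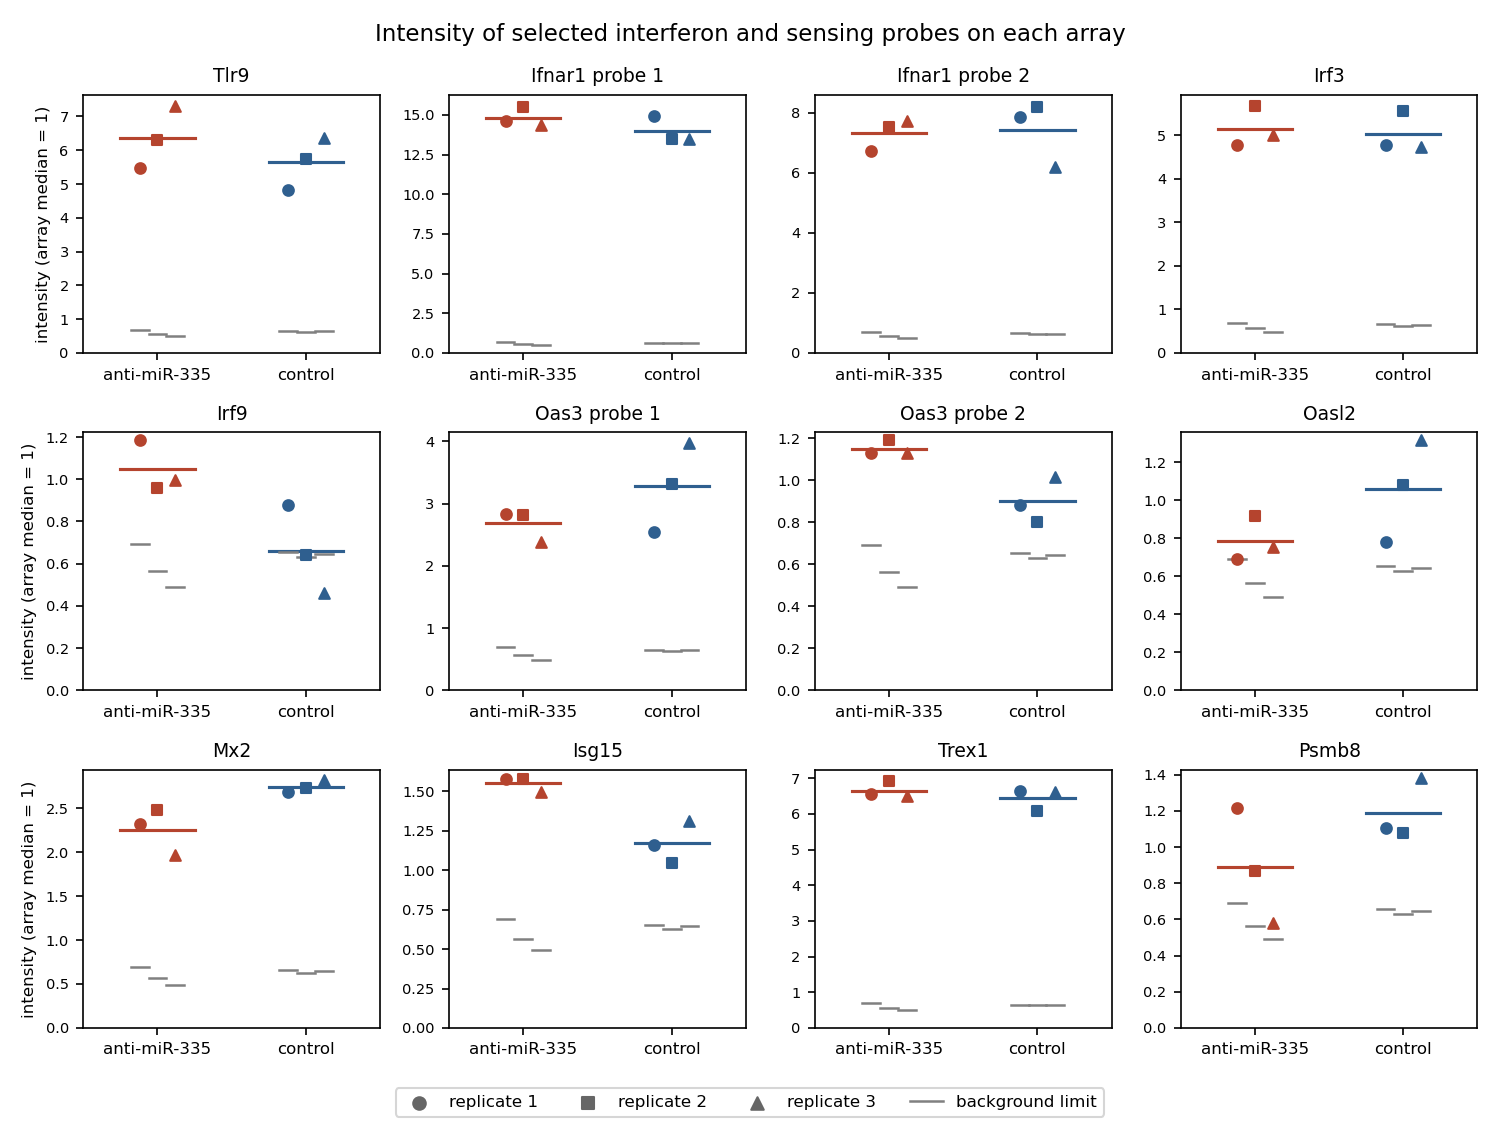
Intensity on each array (array median = 1) of 12 member probes, chosen as the 8 of smallest unadjusted p among those above background on every array of a group and the 5 of highest mean, with Tlr9 in both; symbols are replicates, coloured lines are group means, grey lines are the background limits. Isg15, Irf9 and the second Oas3 probe have every anti-miR-335 array above every control array, Mx2 has every one below, and the other 8 overlap.

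Of 5 probes for enzymes and a kinase that act on nucleic acids, 3 were above background on all 6 arrays. Trex1, the exonuclease that clears cytosolic DNA, lay at 6.55, 6.91 and 6.50 with anti-miR-335 against 6.64, 6.09 and 6.61 with control oligonucleotide. The groups overlapped (log2 difference 0.05 ± 0.10 SE), and the fold interval of 0.883 to 1.21 lay close to 1 on both sides. Adar, which edits adenosine in double-stranded RNA, lay at 1.45 ± 0.0876 against 1.51 ± 0.310 (SD, n = 3 each). Eif2ak2, the kinase PKR that stops translation when it binds double-stranded RNA, lay at 1.03 ± 0.117 against 1.11 ± 0.0962 on one probe, and its second probe was above background on no array. The log2 differences were -0.04 ± 0.19 for Adar and -0.11 ± 0.19 for the first Eif2ak2 probe (SE).

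The remaining effectors had lower means with anti-miR-335 without passing. Ifi35 lay at 2.26 ± 0.379 with anti-miR-335 against 2.35 ± 0.0566 with control oligonucleotide. Bst2, the membrane protein tetherin that holds back budding viruses, was above background on 1 of 3 anti-miR-335 arrays and 3 of 3 controls, at 0.441 to 0.674 against 0.646 to 0.757. The log2 differences were -0.07 ± 0.15 for Ifi35 and -0.30 ± 0.26 for Bst2 (SE). The chemokine Ccl5 was above background on no array. Cxcl10, a chemokine induced by interferon and by NF-kB, lay at 0.209, 1.002 and 0.973 with anti-miR-335 against 0.853, 0.870 and 0.629 with control oligonucleotide. Its lowest value was that of anti-miR-335 replicate 1, and its groups overlapped.

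Antigen presentation genes were read on 3 probes. Psmb8, a catalytic subunit of the immunoproteasome, lay at 1.22, 0.868 and 0.578 with anti-miR-335 against 1.10, 1.08 and 1.38 with control oligonucleotide. The groups overlapped, with a log2 difference of -0.48 ± 0.28 (SE, adjusted p = 0.645 by limma). It was -0.20 without anti-miR-335 replicate 3, the lowest array, and -0.74 without anti-miR-335 replicate 1. Tap1, which carries peptides into the endoplasmic reticulum, lay at 0.672 ± 0.0190 against 0.741 ± 0.0640, close to background, with a log2 difference of -0.14 ± 0.22 (SE). Psmb9, the partner subunit of Psmb8, was above background on 1 array of each group.

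Further genes of the pathway, from lists drawn up beside the members, are described by counts over each list. Of 52 probes for 44 of 51 further interferon-induced genes, 0 passed in either direction by limma, 3 were higher and 1 lower at an unadjusted p under 0.05 (4.91% and 4.17% of all gene probes), and 24 were above background on all 6 arrays and 16 on none. Their median log2 difference was -0.18, with 21 probes above 0 and 31 below, against 0.01 over all gene probes tested. Groups did not overlap for 4 probes that were higher and 5 that were lower, against 7.46% and 7.25% of all gene probes. Among probes above background on every array of a group, the 3 genes with the smallest p were Uba7, the enzyme that activates Isg15 for conjugation, Ifi47, a GTPase induced by interferon, and Tdrd7. Uba7 lay at 0.974, 0.752 and 0.509 with anti-miR-335 against 0.290, 0.270 and 0.375 with control oligonucleotide. All 3 control values were below background, and the probe met the background condition through the anti-miR-335 arrays alone, so no fold is given. It did not pass (adjusted p = 0.412 by limma). Ifi47 lay at 0.742, 0.918 and 0.838 against 1.05, 1.83 and 1.70, without overlap and with control replicate 1 nearest to the other group. Its log2 difference was -0.84 ± 0.24 (SE, adjusted p = 0.420 by limma), and -1.09 without control replicate 1 (adjusted p = 0.0270). Tdrd7 lay at 5.29 ± 0.650 against 4.34 ± 0.136 (SD, n = 3 each).

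Of 27 probes for 24 of 29 further sensing and signalling genes, 0 passed by limma and 15 were above background on all arrays. At an unadjusted p under 0.05, 1 was higher (4.91% of all gene probes), and the median log2 difference was 0.03. Groups did not overlap for 1 probe that was higher and 1 that was lower, against 7.46% and 7.25% of all gene probes. The interferon genes Ifnb1 and Ifna4 were named after their values were seen. Ifnb1 was above background on no array, at 0.0992, 0.541 and 0.268 with anti-miR-335 against 0.0752, 0.539 and 0.251 with control oligonucleotide. Ifna4 was above background on all 3 arrays of each group, at 0.878, 0.573 and 0.655 against 0.856, 0.802 and 0.976. Its groups overlapped (adjusted p = 0.707 by limma). Socs3, a feedback inhibitor of JAK and STAT signalling that LIF also induces, lay at 18.9, 31.4 and 33.5 with anti-miR-335, against 22.1, 7.95 and 7.76 with control oligonucleotide. Control replicate 1 lay among the anti-miR-335 arrays and the other 2 controls well below them. The log2 difference was 1.29 ± 0.36 (SE, adjusted p = 0.415 by limma), and 1.79 without control replicate 1 (adjusted p = 0.0117). The kinase Ikbke lay at 1.11 ± 0.202 against 0.687 ± 0.326, and Ticam1, the adaptor of Tlr3, at 3.52 ± 0.109 against 2.98 ± 0.465 (SD, n = 3 each) on one probe. A second Ticam1 probe had a log2 difference of 0.18 ± 0.18 (SE), and Ikbke was above background on 2 of 3 control arrays.

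Of 14 probes for 11 of 14 further antigen presentation genes, 0 passed by limma, 2 were higher at an unadjusted p under 0.05 (4.91% of all gene probes) and the median log2 difference was 0.11. Groups did not overlap for 4 probes, all higher with anti-miR-335, against 7.46% of all gene probes. These were 1 probe each of H2-D1, Psme2, Psme1 and H2-Ab1. Psme1 lay at 68.2, 72.3 and 69.8 with anti-miR-335 against 60.8, 65.6 and 62.7 with control oligonucleotide. A second Psme1 probe had a log2 difference of -0.002 ± 0.17 (SE). On one probe the class I gene H2-D1 lay at 5.88 ± 0.470 with anti-miR-335 and 4.85 ± 0.576 with control oligonucleotide, the proteasome activator Psme2 at 7.56 ± 0.670 against 6.38 ± 0.0519, and the class II gene H2-Ab1 at 0.801 ± 0.0934 against 0.599 ± 0.151 (SD, n = 3 each). A second H2-D1 probe, also above background on all 6 arrays, had overlapping groups and a log2 difference of 0.06 ± 0.13 (SE), so the probes disagree in size. The H2-Ab1 probe with these means had overlapping groups and was above background on only 1 control array. The other H2-Ab1 probe lay at 0.516, 0.433 and 0.565 with anti-miR-335 against 0.181, 0.295 and 0.429 with control oligonucleotide. It was above background on 1 anti-miR-335 array and 0 control arrays, so no fold is given.

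The arrays as a whole limit these comparisons. Neural precursor markers were present as the labels imply. Of their 10 probes, for 9 of 10 genes, 9 were above background on all 6 arrays, against 51.0% of all gene probes. At an unadjusted p under 0.05 by limma, Hes5 and Fabp7 were higher with anti-miR-335 and 0 were lower (4.91% and 4.17% of all gene probes). Both were without overlap, against 7.46%, and neither passed. The list summed to 323 to 349 with anti-miR-335 and 297 to 316 with control oligonucleotide. Of 6 endothelial probes, 3 were above background on none, against 26.2% of all gene probes. The rest were above it on some arrays: Kdr on 2 anti-miR-335 and 3 control arrays, Tek on 3 and 0, and Cldn5 on 1 and 2. Control replicate 1 stood apart: without it 1100 gene probes (3.17%) passed. With array weights, in which it had the lowest weight at 0.366, 474 (1.36%) passed. In either fit 0 of the 40 member probes passed, and 40 probes are too few to set this apart from those shares. For the 21 member probes above background on all arrays, the median deviation from the mean over the 6 arrays lay between -0.09 and 0.08 on the log2 scale on every array, against -0.07 to 0.06 for all gene probes meeting the same condition.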

How the data were processed

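RNA from neurosphere cultures was hybridised to 6 single-colour CodeLink mouse arrays. The deposited intensities were made by the authors with CodeLink software (version 4.1.0.29054 per the file headers) and divided by each array's median, per the labels. Scanner output was used for 2 arrays, replicate 1 of each group, and there all 36032 and 35976 values present in both equalled the deposited intensities within 0.0001. With 1 such file per group, slide and scan were not tested as batches.

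Gene names came from the platform annotation, which gives 1 symbol to 21615 gene probes, several to 681 and none to 12671. All 40 member symbols matched RefSeq (GRCm38.p6), and 35 of the 40 annotated accessions were those of the scanner output. The background limit was the negative control spots' median plus 3 scaled median absolute deviations. Intensities below the 5th percentile of positive values (0.163) were raised to it, log2 was taken and limma 3.58.1 (R 4.3.3; lmFit, then eBayes with its trend option) gave two-sided tests. Benjamini-Hochberg adjustment ran over the 34847 probes having 2 or more values in each group, with a threshold of 0.05. Log2 differences are anti-miR-335 minus control. Probe intensities were ranked only to choose which probes to show, and no level was set against another probe's as a result. The number of arrays, 3 per group, limits the precision. Where a group was at background throughout, no fold is given.

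The members and lists were chosen with earlier results of these data known. Differences are given for member probes above background on every array of a group, values in every array for the 8 of smallest unadjusted p among them and the 5 brightest, and up to 3 genes of smallest p from each further list. Beyond this rule, the difference of Ifnar2 is given. Values in every array are also given for Ifih1, Ddx58, Tlr3, Ifnar2, Mx1 and Cxcl10 and for some genes of the further and marker lists. Alternatives were quantile normalization, 2 other floors, a filter on dim probes, no trend, array weights, a replicate block and leaving out each array. For same-numbered arrays the correlation of deviations was -0.23, 0.04 and -0.26 (17843 probes), so they were not treated as pairs. The scripts were tested on simulated data.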

Additional observations from a re-analysis of the deposited data

How the results depend on the processing

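The count of member probes past the threshold was 0 under all 13 alternatives to the fit. Apart from array weights and the fit without control replicate 1, at most 1 gene probe passed, so there the member count had little room to differ. In those fits 1.36% and 3.17% of all gene probes passed, shares too low for 40 probes to be informative. The count over all gene probes was 1 after quantile normalization, 474 with array weights, and 0 to 1100 when 1 array was left out, the highest without control replicate 1 and 1 without anti-miR-335 replicate 1. With the replicate block it stayed at 0, the 40 members had a median of -0.03 and 0 passed. The members' median log2 difference, -0.03, ranged from -0.11 (without control replicate 3) to -0.00995 when an array was left out. Of the 24 member probes above background on every array of a group, 10 changed sign under an alternative to the fit. All 10 had log2 differences between -0.07 and 0.08. These were Ifih1 (0.0332), Irf3 (-0.0203) and Adar (0.0354) with array weights, and Trex1 (-0.00134) after quantile normalization. When 1 array was left out, Ddx58 ranged from -0.0328 to 0.158, Ifih1 from -0.118 to 0.0844, Tlr3 from -0.239 to 0.320, Mavs from -0.00178 to 0.212, the second Ifnar1 probe from -0.137 to 0.0643, Irf3 from -0.0346 to 0.111, Stat2 from -0.128 to 0.0822, Adar from -0.169 to 0.116 and Ifi35 from -0.200 to 0.0266. The cause was not tested. Irf9 and Isg15 kept their sign throughout. Ifi47 and Socs3 passed with array weights (adjusted p = 0.0415 and 0.0301 by limma) as well as without control replicate 1.

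With the 95th percentile of the negative spots as limit, 23 member probes in place of 21 were above background on all arrays, and 35 in place of 33 on at least 1, Ifit1 and Isg20 being the 2 added. On the replicate 1 pair 25 had the software's good flag and 23 were above the limit. On that pair, normexp background correction moved 22 of 24 log2 differences by less than 1 moderated SD, and 20 of 24 kept their sign; Ifih1, the first Ifnar1 probe, Irf3 and Trex1 did not. The spread of 3 arrays per group and, for the 7 probes under the main limit throughout, signal over background limit what could be seen.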

Other observations

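Ifih1 and Ifnb1 had values that lay closer between same-numbered arrays of both groups than among the replicates of a group. They and Tlr9 were singled out after their values were seen and carry no test. Ifih1 was at 4.53 and 4.61 on the replicate 1 arrays of anti-miR-335 and control, at 3.61 and 3.64 on the replicate 2 arrays and at 3.76 and 3.81 on the replicate 3 arrays. Ifnb1, which is in the list of further sensing genes and not a member, was below background on all 6 arrays, so these are background values, at 0.0992 and 0.0752, at 0.541 and 0.539, and at 0.268 and 0.251 on the same pairs of arrays. Tlr9 was higher on the anti-miR-335 array of every same-numbered pair, yet with the replicate block its log2 difference of 0.17 had an adjusted p of 0.818 by limma. Over all probes above background, same-numbered arrays did not deviate together.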
